A study of Homo sapiens with 24 samples.

Results

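The importin alpha family and importin beta 1 are the soluble receptors of the classical nuclear import route, and they were followed here at the transcript level after siRNA against the nucleoporin POM121. Members were the genes with the symbols KPNA1, KPNA2, KPNA3, KPNA4, KPNA5, KPNA6 and KPNB1. All 7 were in the table of 25277 gene symbols, and all 7 were among the 13622 symbols tested. KPNA7, an importin alpha known mainly from oocytes and embryos, was listed at 0 in all 24 samples and is not counted as a member.

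The cells were DU145DR and 22Rv1DR, human prostate cancer cells derived from DU145 and 22Rv1 and described by the submitters as aggressive. Each line had a control arm, an arm with siPOM121 construct 1 (Silencer Select s59623) and an arm with siPOM121 construct 2 (Silencer Select s19145), with nothing further given about the control. Each arm held 2 RNA-seq libraries, and each library was read on 2 lanes, so 12 libraries gave 24 samples. In DU145DR the control libraries were 1A and 2A, the construct 1 libraries 1B and 2B and the construct 2 libraries 1C and 2C. In 22Rv1DR they were 4A and 5A, 4B and 5B, and 4C and 5C in the same order. The labels do not say whether the libraries of an arm came from separate cultures, so p-values reflect only how far these libraries vary, which may be technical. Each line is a single derivative, and the results describe these sublines. Levels are FPKM, which scales fragments by transcript length and by library size, so that genes can be compared with each other.

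In classical import, an importin alpha protein binds the nuclear localization signal of a cargo and links it to importin beta 1, the carrier that passes through the pore by touching nucleoporins. Ran in its GTP form releases the cargo inside the nucleus, and CSE1L returns importin alpha to the cytoplasm. The alpha genes fall into 3 subfamilies, with KPNA2 in one, KPNA3 and KPNA4 in another, and KPNA1, KPNA5 and KPNA6 in the last, and cargoes differ in which alpha proteins they bind. POM121 is a transmembrane nucleoporin that helps anchor the pore in the nuclear envelope.

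The subfamilies can be seen in the coding sequences of GENCODE v29. KPNA3 and KPNA4 were identical at 75.5% of aligned bases, and the pairs among KPNA1, KPNA5 and KPNA6 at 72.7% to 74.6%. The remaining alpha pairs were identical at 57.1% to 62.1%. No window of 50 bases was shared between any pair of the 7 genes. However, 17.3% of the 50-base windows of the KPNA2 transcript also occur in transcripts of 6 other genes, among them the pseudogene KPNA2P3. The same holds for 9.37% of KPNA5 windows (105 other genes), 8.79% of KPNA6 windows (53 genes) and 2.73% of KPNA4 windows (24 genes). How the authors' quantification divided reads from such stretches is not given in the sources used here, so the levels of these 4 genes carry this uncertainty.

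Promoter sequence was matched by symbol for 4 of the 7 members (KPNA1, KPNA2, KPNA3 and KPNA6) in RefSeq, build GRCh38.p14. The 250 bases before the start of KPNA2 (chr17:68035485-68035734, plus strand) and KPNA3 (chr13:49792683-49792932, minus strand) are shown because these genes moved in opposite directions in 22Rv1DR. Both are written 5′ to 3′ on the strand of the gene, and capitals mark matches, on either strand, to 4 of the motifs spelled out in the paragraph after them.
KPNA2: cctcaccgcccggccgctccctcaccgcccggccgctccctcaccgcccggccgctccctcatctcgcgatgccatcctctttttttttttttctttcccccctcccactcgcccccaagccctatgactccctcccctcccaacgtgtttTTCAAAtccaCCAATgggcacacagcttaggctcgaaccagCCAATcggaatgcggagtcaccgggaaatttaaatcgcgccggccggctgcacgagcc
KPNA3: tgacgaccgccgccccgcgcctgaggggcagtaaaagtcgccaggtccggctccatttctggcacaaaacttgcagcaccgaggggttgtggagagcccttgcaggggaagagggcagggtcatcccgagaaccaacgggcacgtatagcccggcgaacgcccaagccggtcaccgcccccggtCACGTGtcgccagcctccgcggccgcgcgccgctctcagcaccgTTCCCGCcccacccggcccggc

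The KPNA2 window holds the letters CCAAT, the core of the NF-Y box, at 89 to 85 and again at 58 to 54 bases before the start. It also holds TTTGAA, the core of the cell cycle homology region, on the opposite strand at 99 to 94 bases before the start. The KPNA3 window holds the E-box letters CACGTG at 66 to 61 bases and the E2F letters GCGGGAA, on the opposite strand, at 22 to 16 bases before the start. Of 35116 promoter windows of the same length, 32.0% hold CCAAT, 13.3% TTTGAA, 6.35% CACGTG and 5.52% GCGGGAA on either strand. CCAAT also occurs in KPNA6. The GC box letters GGGCGG, present in 42.6% of promoters, occur in KPNA1, KPNA2 and KPNA3, and overlap the GCGGGAA match in KPNA3. The forkhead letters TGTTTAC, present in 2.98%, were found in none of the 4 windows. These matches are letters in a window and were not tested as sites.

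POM121 itself was lower in every siPOM121 library than in any control library of its line. It stood at 21.6 FPKM in 1A and 21.3 in 2A, and at 13.4, 13.5, 12.5 and 13.2 FPKM in 1B, 2B, 1C and 2C. In 22Rv1DR it stood at 38.5 FPKM in 4A and 37.8 in 5A, and at 7.68, 7.81, 6.73 and 7.43 FPKM in 4B, 5B, 4C and 5C. Its close copy POM121C was lower too, with a log2 fold change of -0.71 in DU145DR. In 22Rv1DR POM121C stood at 26.3 and 27.0 FPKM in 4A and 5A, and at 4.61, 4.65, 4.04 and 4.64 in 4B, 5B, 4C and 5C. Reads shared by POM121 and POM121C may have been divided between them by the authors' quantification. Whether the constructs lowered both transcripts was not tested. Sequencing depth is not given, and 11884 to 12569 symbols per sample, each sample being a lane of a library, were above the floor of 1 FPKM. The 22Rv1DR construct 2 libraries stood apart from each other: 29.1% of the tested symbols differed by more than 0.25 log2 between 4C and 5C, against 3.26% to 6.84% between the libraries of the other 5 arms. Library 4A was read on the same lane numbers as the DU145DR libraries, while the other 22Rv1DR libraries were read on other lanes. Of 4 epithelial markers, 22Rv1DR had all 4 above the floor and DU145DR had EPCAM, KRT8 and KRT18, with CDH1 at 0. The prostate luminal markers KLK2, KLK3 and HOXB13 were at 0 in DU145DR and above the floor in 22Rv1DR. The endothelial markers PECAM1, VWF, CDH5 and KDR and the blood markers PTPRC and CD3E were at 0 in both lines, as were the stromal markers COL3A1, DCN and PDGFRB. The blood list's CD68 ranged from 12.5 to 15.7 FPKM in DU145DR, where it fell by 0.29 (adjusted p = 0.0267), and from 1.61 to 2.53 FPKM in 22Rv1DR, where it rose by 0.40 (adjusted p = 0.00449). The stromal list's COL1A1 stood at 1.04 and 1.09 FPKM in the DU145DR controls and at 2.18 to 2.93 under siPOM121, and rose by 1.19 (adjusted p = 4.6e-05). In 22Rv1DR COL1A1 ranged from 7.65 to 8.95 FPKM and was not called. The part of these markers in the results was not tested. In such bulk RNA, fewer cells of a type and less RNA per cell cannot be told apart.

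KPNA2 and KPNB1 were the most abundant members in both lines, and KPNA5 the least abundant. In DU145DR control cells the order from high to low was KPNA2, KPNB1, KPNA3, KPNA6, KPNA4, KPNA1 and KPNA5. In 22Rv1DR control cells KPNA6 stood above KPNA3 and the rest of the order was shared. In neither control arm did the library ranges of neighbouring genes overlap. Ranges of neighbours overlapped only for KPNA3 and KPNA6, under construct 1 in DU145DR and under construct 2 in 22Rv1DR.

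**Figure D1:**
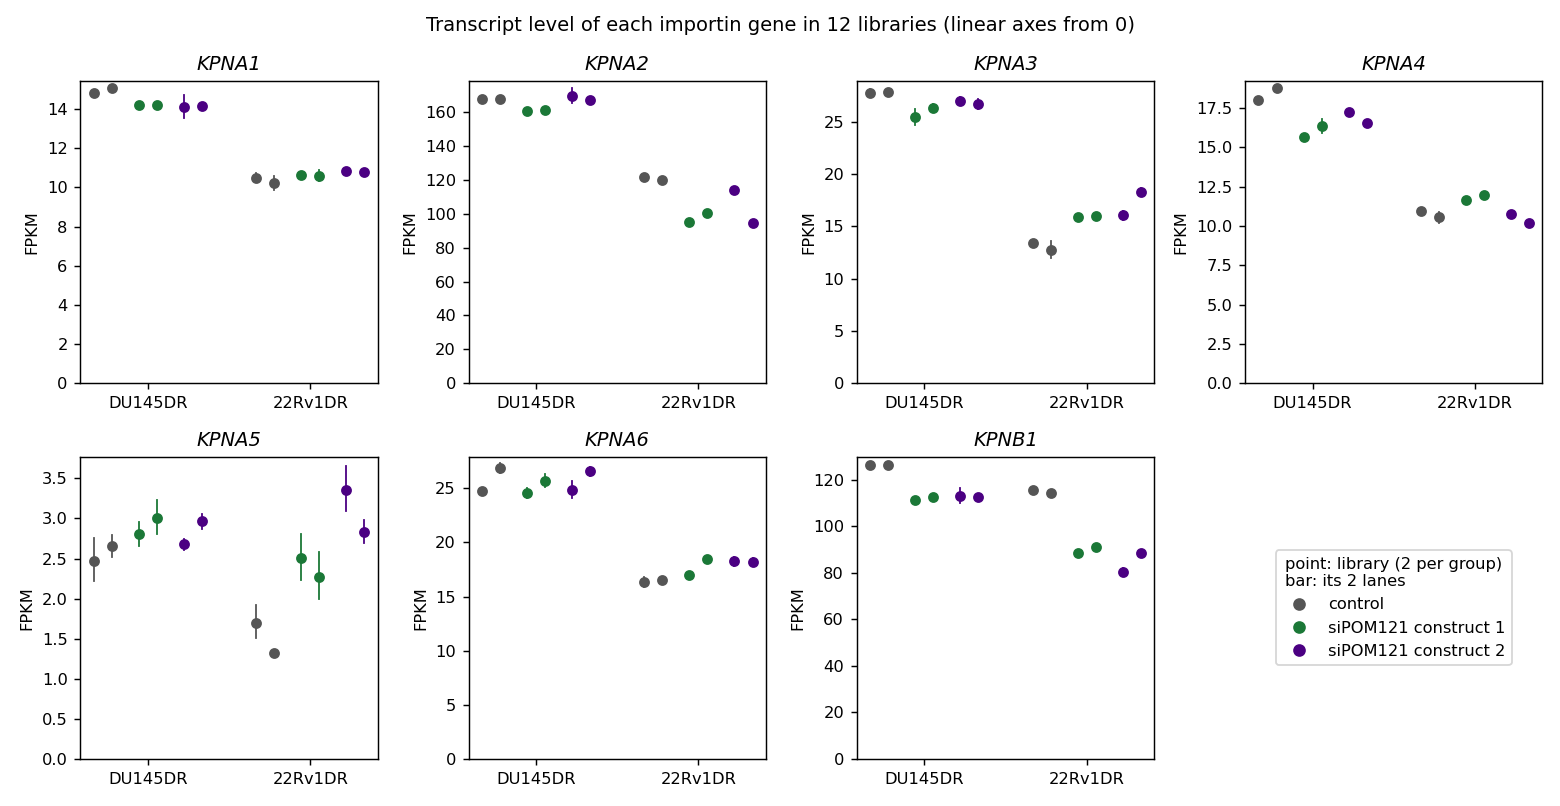
FPKM of the 7 genes in each of the 12 libraries, by line and treatment, on linear axes from 0, with a point for each library and a bar joining its 2 lanes. In 22Rv1DR the KPNB1 and KPNA2 points of all 4 siPOM121 libraries lie below both control points. The KPNA3 and KPNA5 points lie above them, as do those of KPNA1 and KPNA6, which were not called. In DU145DR the points of KPNA1, KPNA3 and KPNA5 are likewise apart from the controls without a call. How many of all symbols separate in this way was not counted.

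All 7 members were lower in 22Rv1DR control cells than in DU145DR control cells (limma, adjusted p of 0.0221 or lower). Of all tested symbols 83.0% differed between the control cells, and 42.7% were lower in 22Rv1DR, so a call in this comparison is common. The median log2 difference of the 7 members was -0.65, against -0.02 over all symbols tested. KPNA3 differed most, by -1.09 on the log2 scale, and KPNB1 least, by -0.14. The KPNB1 call was lost when any single control library (1A, 2A, 4A or 5A) was left out and with median centring, with adjusted p up to 0.154. The line and the lanes differ together for all libraries except 4A.

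Under siPOM121 the members of 22Rv1DR moved in both directions. KPNB1 and KPNA2 fell, KPNA3 and KPNA5 rose, and KPNA1, KPNA4 and KPNA6 did not pass the test. These 4 calls among 7 members compare with 35.5% of all tested symbols called in this line, 15.2% higher and 20.4% lower. In DU145DR 2 of 7 members were called, KPNB1 and KPNA4, both lower, and none rose. In that line 23.9% of all symbols were called, 14.5% higher and 9.37% lower, so the share of members called is near the background. The median log2 fold change of the members was -0.08 in DU145DR and 0.05 in 22Rv1DR, against 0 and -0.02 over all symbols tested.

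KPNB1, the carrier, was the only member called in both lines. In DU145DR it stood at 127 FPKM in both control libraries and at 111, 113, 113 and 113 FPKM in 1B, 2B, 1C and 2C. All 4 siPOM121 libraries were below both controls, and KPNB1 fell by 0.17 on the log2 scale (SE 0.04, adjusted p = 0.0169, limma). Without 1A or without 2A the difference was the same size with adjusted p of 0.1 and 0.0998.

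In 22Rv1DR KPNB1 stood at 116 FPKM in 4A and 114 in 5A, and at 88.4, 91.4, 80.6 and 88.4 FPKM in 4B, 5B, 4C and 5C. Again no siPOM121 library reached a control library, and 4C was the lowest. KPNB1 fell by 0.40 (SE 0.04, adjusted p = 0.000179), and 10.7% of all tested symbols had a larger absolute change in this line. The call held under all 23 alternatives, with log2 fold changes of -0.43 to -0.32. Responses differed between the lines for 4 of 7 members, against 24.8% of all symbols (8.93% with a higher and 15.9% with a lower value in 22Rv1DR). For KPNB1 the 22Rv1DR effect was larger, with a line difference of -0.23 (SE 0.06, adjusted p = 0.0211, interaction in limma). Without 1A, 2A, 4A, 5A or 4B the difference stayed at -0.24 to -0.22 with adjusted p of 0.0533 to 0.0763. Under quantile normalization it was smaller, at -0.13 (adjusted p = 0.0979).

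KPNA2, the adaptor of its own subfamily and a gene known to peak late in the cell cycle, was lower under siPOM121 in 22Rv1DR. Its levels were 122 FPKM in 4A and 120 in 5A, 95.4 and 101 FPKM in 4B and 5B, and 114 and 94.7 FPKM in 4C and 5C. Library 4C lay close to the controls, but the 4 siPOM121 libraries did not overlap them. KPNA2 fell by 0.26 (SE 0.06, adjusted p = 0.012), by 0.33 without 4C and by 0.20 without 5C. The call was lost without 4A (adjusted p = 0.0831), without 5A (0.0692), with libraries centred on their medians (0.0545) and with the line fitted alone (0.145).

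In DU145DR KPNA2 was at 168 FPKM in both control libraries, at 161 in both construct 1 libraries, and at 170 and 167 in 1C and 2C. The construct 2 libraries lay on both sides of the controls, and the difference of -0.03 did not pass the test (SE 0.06, adjusted p = 0.875). The difference in KPNA2 response between the lines was -0.23 (SE 0.09, 95% interval -0.44 to -0.03) and did not pass the test either (adjusted p = 0.0889). It passed without 4C (-0.30, adjusted p = 0.000771), without 5C (-0.17, adjusted p = 0.00877) and with array weights (adjusted p = 0.0181).

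Of KPNA3 and KPNA4, the most alike pair in coding sequence, KPNA3 rose in 22Rv1DR and KPNA4 was not called there; the difference between the genes was not tested. In 22Rv1DR KPNA3 stood at 13.4 FPKM in 4A and 12.8 in 5A, and at 15.9, 16.0, 16.1 and 18.3 FPKM in 4B, 5B, 4C and 5C. All 4 siPOM121 libraries were above both controls, with 5C the highest, and KPNA3 rose by 0.34 (SE 0.05, adjusted p = 0.00151). It rose by 0.38 without 4C and by 0.29 without 5C, and the call was lost only when the line was fitted alone (adjusted p = 0.0557). KPNA4 stood at 11.0 and 10.6 FPKM in 4A and 5A, at 11.6 and 11.97 in 4B and 5B, and at 10.7 and 10.2 in 4C and 5C. The siPOM121 libraries of KPNA4 overlapped the controls, and it differed by 0.05 on the log2 scale (SE 0.05, adjusted p = 0.487).

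In DU145DR KPNA4 fell and KPNA3 was not called. KPNA4 stood at 18.0 and 18.8 FPKM in the controls and at 15.6, 16.3, 17.2 and 16.6 FPKM in 1B, 2B, 1C and 2C. It fell by 0.16 (SE 0.05, adjusted p = 0.0301), a call lost under 9 of 24 alternatives, 6 of which left out a single library (1A, 2A, 1B, 2C, 4B or 5B). KPNA3 stood at 27.8 and 27.9 FPKM in the controls and at 25.4, 26.3, 27.0 and 26.7 FPKM in the siPOM121 libraries, and its log2 fold change of -0.08 did not pass the test (adjusted p = 0.338). The line difference was 0.42 for KPNA3 (SE 0.08, adjusted p = 0.00523) and 0.21 for KPNA4 (SE 0.06, adjusted p = 0.0427). The KPNA3 difference held in all 22 alternatives, while that of KPNA4 was lost in 14 of 22.

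KPNA5, the least abundant member, had the largest change among the members in 22Rv1DR. In 22Rv1DR it stood at 1.70 FPKM in 4A and 1.33 in 5A, at 2.51 and 2.27 FPKM in 4B and 5B, and at 3.36 and 2.83 FPKM in 4C and 5C. The control libraries were the lowest and the construct 2 libraries the highest, with no overlap between the 3 arms. KPNA5 rose by 0.85 on the log2 scale (SE 0.11, adjusted p = 0.000557), and 0.984% of tested symbols had a larger absolute change. Its lowest levels lie near the floor of 1 FPKM, and the 2 lanes of a library differed by 0.18 log2 in the median, the widest lane gap among the members. The call held under all 22 alternatives that tested it, with log2 fold changes of 0.57 to 1.03, the largest being the value without 4A, when only libraries on the same lanes remained. In DU145DR KPNA5 stood at 2.47 and 2.65 FPKM in the controls and at 2.80, 3.01, 2.68 and 2.96 FPKM in the siPOM121 libraries, all above the controls. Its log2 fold change there of 0.16 did not pass the test (SE 0.11, adjusted p = 0.353). The line difference was 0.69 (SE 0.16, adjusted p = 0.0131), and it was lost without 2A, without 5A and with the higher-numbered lanes alone (adjusted p up to 0.0657).

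KPNA1 and KPNA6, the other members of the KPNA5 subfamily, were not called in either line in the test as designed. KPNA1 stood at 10.2 to 10.5 FPKM in the 22Rv1DR controls and at 10.6 to 10.8 in the siPOM121 libraries, a difference of 0.05 on the log2 scale (SE 0.04, adjusted p = 0.351). KPNA6 stood at 16.3 to 16.5 FPKM in those controls and at 17.0 to 18.5 under siPOM121, and its change of 0.13 on the log2 scale did not pass the test (SE 0.05, adjusted p = 0.0825). KPNA6 passed under quantile normalization (0.19, adjusted p = 0.0247), median centring (0.16, adjusted p = 0.0417) and the replicate block (0.13, adjusted p = 0.0462). In DU145DR KPNA1 ranged from 14.8 to 15.1 FPKM in the controls and from 14.1 to 14.2 under siPOM121. Its log2 fold change of -0.08 did not pass the test (adjusted p = 0.158), but passed with the line fitted alone in limma (adjusted p = 0.0209). The KPNA6 ranges overlapped there, at 24.7 to 26.9 and 24.5 to 26.6 FPKM.

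**Figure D2:**
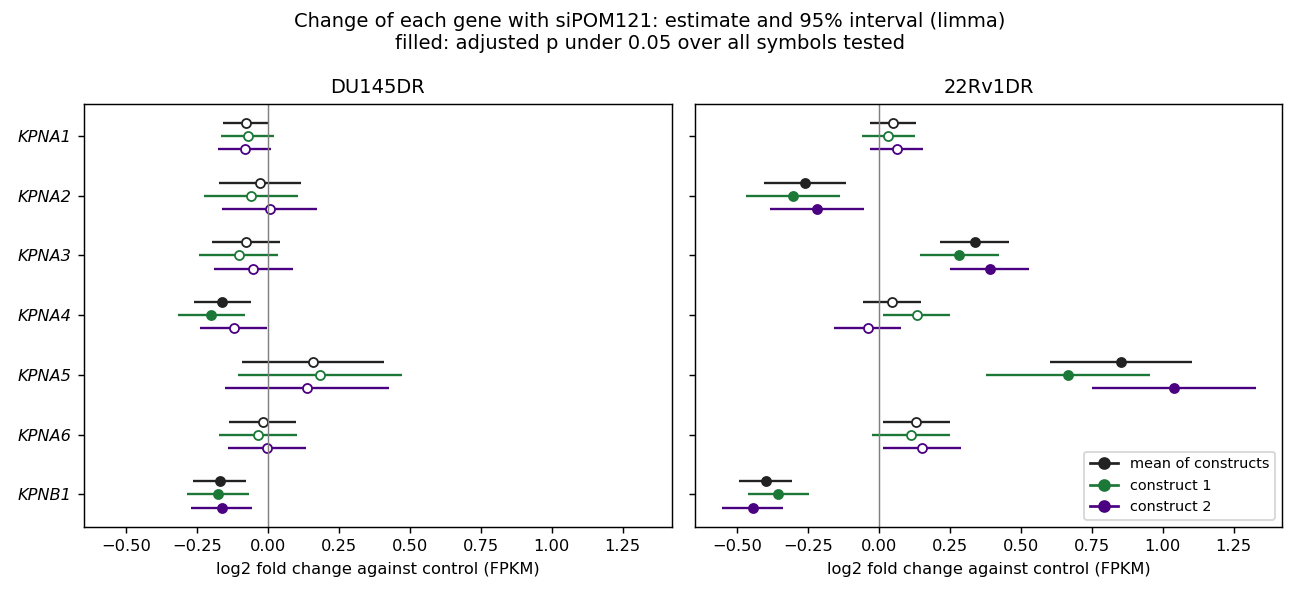
Log2 fold change of each gene against control with its 95% interval (limma), for the mean of both constructs and for each construct, in DU145DR (left) and 22Rv1DR (right); filled points have an adjusted p under 0.05. In 22Rv1DR the KPNB1 and KPNA2 estimates lie left of 0 for both constructs and the KPNA3 and KPNA5 estimates right of it.

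Both constructs gave the same 4 calls in 22Rv1DR in the test as designed. Against control, construct 1 called 4 of 7 members where 27.1% of all symbols were called, and construct 2 called 4 of 7 where 35.1% were called. KPNB1 fell by 0.35 with construct 1 and by 0.45 with construct 2, and KPNA3 rose by 0.28 and 0.39. KPNA5 rose by 0.67 and 1.04. The construct 1 call was lost in 5 of 24 alternatives for KPNA3, in 2 of 23 for KPNA5 and in 4 of 24 for KPNA2. For KPNB1 it held in all 24. KPNA2 fell by 0.30 with construct 1 (adjusted p = 0.0146) and by 0.22 with construct 2 (adjusted p = 0.0452), and the latter call was lost in 20 of 23 alternatives. With construct 2 the KPNA2 difference was -0.09 without 5C and -0.35 without 4C. Both constructs were compared with the same control libraries, so their calls share them. In DU145DR construct 1 called KPNA4 and KPNB1, both lower, 2 of 7 members against 19.8% of all symbols (7.62% lower). Construct 2 called KPNB1 alone, against 16.6% of all symbols (5.62% lower). Over the alternatives, the KPNB1 call was lost in 11 of 24 for construct 1 and in 12 of 24 for construct 2.

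Construct 2 against construct 1 called none of the 7 members in either line (limma), and 0.0220% of all symbols in DU145DR and 11.6% in 22Rv1DR. The latter share, 1577 symbols, rests on single libraries, with 223 called without 4B, 315 without 5B and 5983 without 5C, and 131 with array weights. At an unadjusted p under 0.05 there were 0 members in DU145DR and 2 in 22Rv1DR. These 2 were KPNA5, higher with construct 2 by 0.37 (95% interval 0.08 to 0.66, adjusted p = 0.0923), and KPNA4, lower with construct 2 by 0.17 (95% interval -0.29 to -0.06, adjusted p = 0.0635). For KPNB1 the interval of the construct difference in 22Rv1DR was -0.20 to 0.02, and for KPNA2 it was -0.08 to 0.25. Leaving out 4C called 2 members and leaving out 5C called 3, so the comparison of the constructs in 22Rv1DR rests on which of these libraries is kept.

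The makeup of the importin alpha pool is given as shares of summed FPKM, a description with no test. KPNA2 made up 69.7% of the summed FPKM of the 6 alpha genes in 4A and 70.0% in 5A. Its share was 62.3% in 4B, 62.9% in 5B, 65.8% in 4C and 61.1% in 5C. Every siPOM121 library of 22Rv1DR had a lower KPNA2 share than both controls. In DU145DR the share was 65.6% and 64.8% in the controls and 65.3% to 66.4% under siPOM121. The KPNA3 share in 22Rv1DR was 7.68% and 7.46% in the controls and 9.28% to 11.8% under siPOM121, and the KPNA5 share was 0.973% and 0.774% against 1.42% to 1.94%. The ratio of KPNA3 to KPNA4 was 1.22 and 1.21 in the 22Rv1DR controls, 1.37 and 1.33 with construct 1, and 1.50 and 1.80 with construct 2.

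KPNB1 relative to the summed alpha transcripts was lower with siPOM121 in both lines. The ratio was 0.495 and 0.488 in the DU145DR controls and 0.443 to 0.457 in the siPOM121 libraries. In 22Rv1DR it was 0.661 and 0.667 in the controls and 0.578, 0.571, 0.465 and 0.570 in 4B, 5B, 4C and 5C. Library 4C had the lowest ratio of its line, with the lowest KPNB1 level and the KPNA2 level nearest to the controls.

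**Figure D3:**
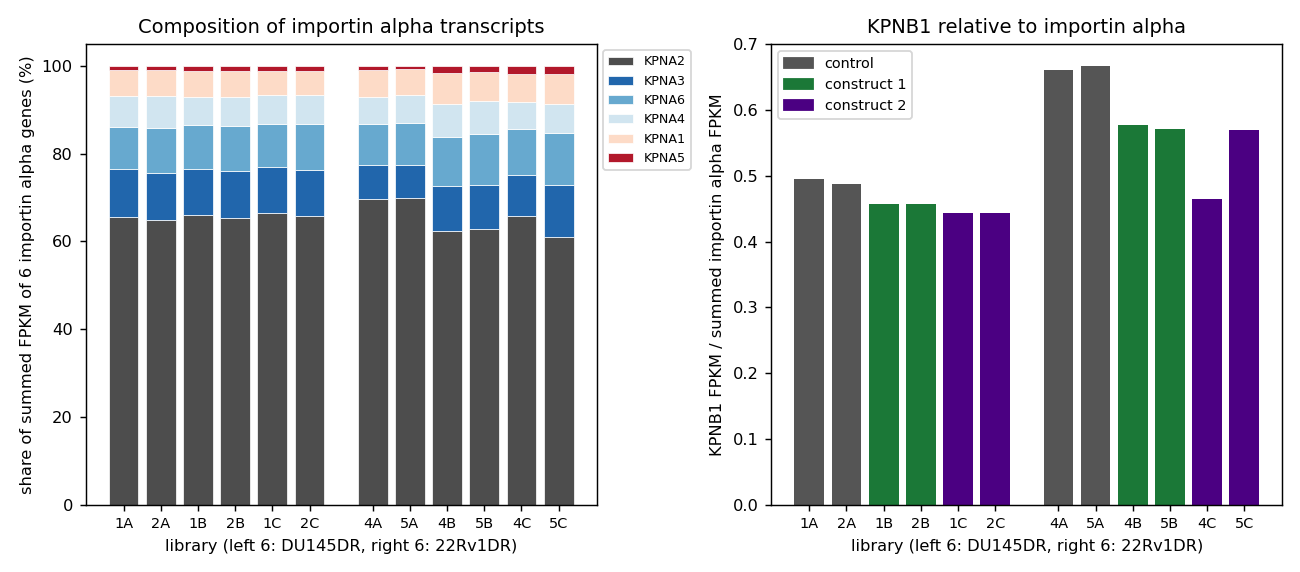
Left: share of the summed FPKM of 6 importin alpha genes held by each gene, per library; right: KPNB1 FPKM divided by that sum. In 22Rv1DR the KPNA2 share is 69.7% and 70.0% in the control libraries and 61.1% to 65.8% in the siPOM121 libraries, and the KPNB1 ratio is lower in all 4 of these than in either control.

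The list of import cycle partners holds the Ran cycle, the recycling factor CSE1L, nucleoporins that bind the carriers, TPX2, SNUPN, IPO7 and KPNA7. Of its 20 genes 19 were tested, all but KPNA7. In 22Rv1DR 12 of 19 fell and none rose, where 20.4% of all symbols fell, and the median log2 fold change was -0.24. Values were below 0 for 18 of 19 partners in 22Rv1DR, all but IPO7, and for 19 of 19 in DU145DR. Over all 13622 symbols tested, 7166 were below 0 in 22Rv1DR and 5657 in DU145DR. CSE1L, the exporter of importin alpha, stood at 75.4 and 73.1 FPKM in the controls and at 58.7, 60.0, 59.9 and 65.4 FPKM in the siPOM121 libraries, and fell by 0.29 (SE 0.04, adjusted p = 0.00118). TPX2, a spindle factor that KPNA2 holds inactive, fell by 0.59 (SE 0.04, adjusted p = 3.88e-05). RANGAP1, which activates the GTPase of Ran, fell by 0.34 (adjusted p = 0.00138). The nucleoporins NUP214, NUP62 and NUP98 fell by 0.39, 0.38 and 0.19. The count of lower partners was 15 without 4C and 17 (with 1 higher) without 5C, and 9 without 4A and 6 without 5A.

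In DU145DR 3 of 19 partners fell and none rose, where 9.37% of all symbols fell, and the median was -0.09. These were RANGAP1 (by 0.23), NUP50 (by 0.17), which helps release cargo from importin alpha, and RCC1 (by 0.35), the exchange factor that makes Ran-GTP. CSE1L stood at 80.1 and 81.9 FPKM in the controls and at 72.5 to 76.3 FPKM under siPOM121, and its log2 fold change of -0.11 did not pass the test (adjusted p = 0.0915). The partner count was 0 without 1A and 1 without 2A, but 9 without 4C or without 5C, which enter the DU145DR test through the spread shared by all arms. In the test of the line difference 3 of 19 partners were lower in 22Rv1DR, and the other 16 tested did not pass. Of all symbols 15.9% were lower in this test, so the partner count is near the background. That partner count rests on single libraries and changed with the library left out.

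Of 16 other transport receptors, which carry other cargo classes or act as exporters, 7 fell in DU145DR, where 9.37% of all symbols fell, and 8 fell and 1 rose in 22Rv1DR, where 20.4% fell and 15.2% rose. Their medians were -0.17 and -0.18. IPO4, a carrier of histones and ribosomal proteins, fell by 0.39 in DU145DR and by 0.54 in 22Rv1DR. XPO5, the exporter of microRNA precursors, fell by 0.30 and 0.40, and TNPO3, a carrier of splicing factors, by 0.21 and 0.32. TNPO1, the transportin, fell by 0.29 in DU145DR (adjusted p = 0.0114) and rose by 0.20 in 22Rv1DR (adjusted p = 0.0381). Its FPKM was 17.1 and 16.1 in the 22Rv1DR controls and 19.6, 19.9, 20.1 and 16.9 under siPOM121, so 5C overlapped the controls, and the call in 22Rv1DR was lost when any of the 10 libraries other than 4C and 5C was left out. The count of receptors that fell in 22Rv1DR was 6 or 7 without any of those 10, 10 without 4C and 11 without 5C. In DU145DR the count of receptors that fell was 2 without 1A and 2 without 2A.

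**Figure D4:**
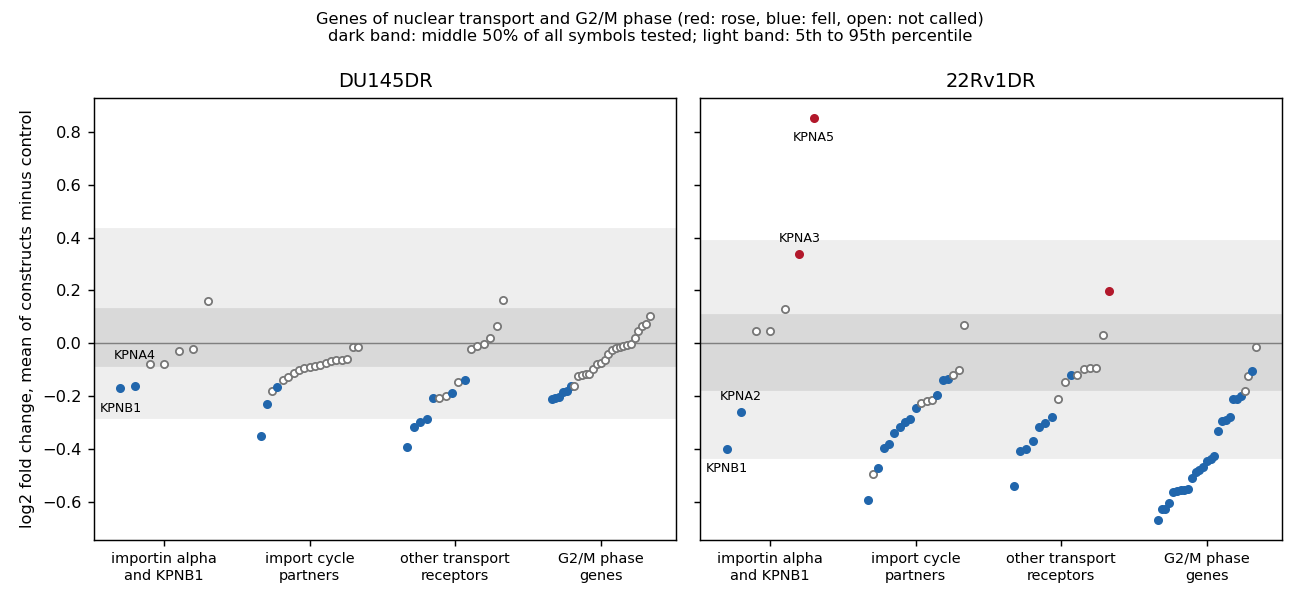
Log2 fold change of each gene under siPOM121 (mean of both constructs minus control), by list, for DU145DR (left) and 22Rv1DR (right), with bands for the middle 50% and the 5th to 95th percentile of all symbols tested; genes with an adjusted p under 0.05 are filled, red where higher and blue where lower. In 22Rv1DR KPNA3 and KPNA5 lie above 0 while 12 of 19 import cycle partners and 24 of 27 G2/M phase genes are blue.

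Most genes of the G2/M phase were, like KPNA2, lower under siPOM121 in 22Rv1DR. Of 27 genes on this list 24 fell and none rose, where 20.4% of all symbols fell and 15.2% rose. The median of the list was -0.44. PLK1, a mitotic kinase, fell by 0.63, BUB1B, a checkpoint kinase, by 0.56, and CCNB1, cyclin B1, by 0.47. With construct 1 all 27 fell, with a median of -0.60, where 27.1% of all symbols were called in either direction. With construct 2 17 fell and 2 rose, with a median of -0.28, where 35.1% of all symbols were called. Construct 2 was called higher than construct 1 for 21 of 27, and all 27 values were above 0, the lowest at 0.095. Of all 13622 symbols 11.6% were called in either direction, 994 of them higher. The count of lower genes in 22Rv1DR changed with the library left out. Its median stayed between -0.46, without 4C, and -0.42, without 5A. In DU145DR, where KPNA2 was not called and 9.37% of all symbols fell, 6 of 27 fell, with a median of -0.07. Among them were PLK1, by 0.21, and AURKA, by 0.21. That count was 1 without 1A and 2 without 2A. The line difference was called lower in 22Rv1DR for 20 of 27, against 15.9% of all symbols. This count too changed with the library left out. The median line difference, -0.35 with all libraries, was -0.30 without 4A and -0.37 without 5A. The part of these genes in the KPNA2 result was not tested.

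Of the transcription factors E2F1, MYC and GATA2, studied as import cargo, E2F1 fell in 22Rv1DR and none were called in DU145DR. E2F1 stood at 20.7 and 22.3 FPKM in the 22Rv1DR controls and at 11.9, 11.5, 17.8 and 15.9 FPKM in 4B, 5B, 4C and 5C, and fell by 0.62 (SE 0.06, adjusted p = 0.000108). MYC and GATA2 had log2 fold changes of -0.26 (adjusted p = 0.097) and 0.04 (adjusted p = 0.829) in 22Rv1DR. These are transcript levels and say nothing of where the proteins were.

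For the 3 called members with the largest changes, the symbols with the most similar pattern were found by the root mean square difference over the 12 libraries, after subtraction of each line's mean, among 7582 symbols with at least 5 FPKM in both lines. Among those nearest to KPNA5 were KLHL24, an adaptor of a ubiquitin ligase, at 0.0904 log2, and ERRFI1, an inhibitor of the EGF receptor, at 0.121, where KPNA5 itself varied by 0.325. In 22Rv1DR KLHL24 stood at 4.58 and 4.44 FPKM in the controls, 6.91 and 7.07 with construct 1 and 9.09 and 8.29 with construct 2. It was chosen for its likeness to KPNA5 over these libraries, so the shared order of arms is no separate result. Nearest to KPNB1, which varied by 0.15, were HDGF, a growth factor that binds chromatin, at 0.0289, BAZ1B, a chromatin remodelling subunit, at 0.0302, and BMS1, a ribosome assembly GTPase, at 0.0303. HDGF stood at 162 and 166 FPKM in the 22Rv1DR controls and at 119 to 134 FPKM under siPOM121. Nearest to KPNA3, which varied by 0.128, were CAMSAP2, which binds microtubule minus ends, at 0.039, CDC42SE2 at 0.0419 and PPTC7 at 0.0457. CDC42SE2 stood at 20.1 and 19.1 FPKM in the 22Rv1DR controls and at 23.0 to 25.9 FPKM under siPOM121.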

How the data were processed

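RNA was measured by poly(A) RNA-seq in 12 libraries, each read on 2 lanes. Reads were aligned with TopHat and quantified with Cufflinks against hg19, per the submitters' processing notes (which also name mm10), with versions not given in the sources used here. The deposited table holds log2 FPKM: 100% of values above 0 turn into numbers of 6 significant digits as powers of 2 (within 0.02 units of the sixth digit), against 3.99% with base e. The smallest level above 0 is just over 1 FPKM, the floor of the table, and 51.5% of values lie at 0. The design had assumed plain FPKM. The table has 27026 lines for 25277 symbols, 605 of them repeated, and each member has 1 line. Counts and depth are unknown, and without strand in the library type overlapping antisense genes cannot be told apart.

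The 2 lanes of a library were averaged. Testing required both lanes over the floor in 2 or more libraries (13622 symbols). limma 3.58.1 (R 4.3.3, trend and robust options) fitted 1 mean per group over all 12 libraries, with 2-sided p-values and Benjamini-Hochberg adjustment over all tested symbols at a threshold of 0.05. The script was tested on simulated data. The effect of siPOM121 is the mean of both constructs minus control. The members, gene lists and motifs were chosen with earlier results of these data known. The genes named are the members, POM121 and the cargo factors E2F1, MYC and GATA2. Also named are up to 6 called genes per list and line with the smallest p. Up to 3 nearest symbols are named for each of the 3 called members with the largest change. CSE1L in DU145DR, TNPO1 in 22Rv1DR, POM121C and the marker genes were named for comparison. Some genes that these rules select are not reported here. Sequences came from RefSeq (GRCh38.p14) and GENCODE v29, read with Biopython 1.88 in Python 3.11.15 (pandas 2.3.3, matplotlib 3.10.9). Alternatives were other filters, pseudocounts of 1 and 0.1 FPKM, quantile normalization, median centring, a replicate block, array weights, separate fits, single lanes and leaving out each library.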

Additional observations from a re-analysis of the deposited data

Results flagged for a closer look

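For 4 members the response to siPOM121 differed between the lines in limma's interaction test, as 22Rv1DR minus DU145DR on the log2 scale. The differences were 0.415 for KPNA3, 0.207 for KPNA4, 0.694 for KPNA5 and -0.23 for KPNB1. Of all symbols tested, 24.8% differed in this way, 8.93% with a higher and 15.9% with a lower value in 22Rv1DR. KPNA3 had a value of -0.08 in DU145DR against 0.34 in 22Rv1DR, whereas KPNB1 fell in both lines, by 0.17 and 0.40. Knockdown of POM121 also differed, with log2 fold changes of -0.71 in DU145DR and -2.37 in 22Rv1DR; its part in these differences was not tested.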

How the results depend on the processing

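The counts below are of members called. Under quantile normalization the count was 1 for siPOM121 in DU145DR, 1 for construct 1 in DU145DR and 2 for the line difference. With the lower-numbered lanes it was 1, 0 and 0 for siPOM121, construct 1 and construct 2 in DU145DR, and with the higher-numbered lanes it was 2 for construct 1 in 22Rv1DR, 1 for construct 2 against construct 1 there and 2 for the line difference. With each line fitted alone it was 4 and 2 for constructs 1 and 2 in DU145DR, and 2, 1 and 2 for siPOM121, construct 1 and construct 2 in 22Rv1DR.

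Library numbers recur across arms, but deviations of same-numbered libraries correlated at only -0.102 to 0.126, so the numbers were not taken to pair them. With the number as a replicate block the count was 0 for construct 2 in DU145DR and 1 for construct 2 against construct 1 in 22Rv1DR. It was 5 for siPOM121 in 22Rv1DR and 3 for the line difference.

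Leaving out 1 library at a time, the counts ranged from 0 to 2 for siPOM121 and 0 to 2 for construct 1 in DU145DR, and from 0 to 1 for construct 2 there. In 22Rv1DR they ranged from 3 to 4 for siPOM121, 2 to 5 for construct 1 and 3 to 4 for construct 2. They ranged from 0 to 3 for construct 2 against construct 1 in 22Rv1DR, 1 to 6 for the line difference and 6 to 7 for the control cells. An alternative chosen after seeing the data left out both 4C and 5C, and called 2 members for siPOM121 in DU145DR and 5 for construct 1 in 22Rv1DR, KPNA4 being added.

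Over all symbols, the 3253 called for siPOM121 in DU145DR became 1551 and 1554 when 1A or 2A was left out, and 5136 when 4C or 5C was. The 4842 in 22Rv1DR became 2065 with the line fitted alone, 2935 without 4A and 2548 without 5A. Neither quantile normalization nor median centring moved the median of all symbols by over 0.1 log2. A fit without a given library leaves a single library in its arm, so that arm adds nothing to the spread. With 2 libraries per arm and unknown depth, a member that was not called may still differ.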
